A study of Apis mellifera with 48 samples.

Results

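A set of 79 genes was chosen from the mushroom body transcriptomes of honey bees (Apis mellifera) because their median level was lower in active than in inactive drones while their median level in workers stayed close to unchanged. They were 79 of the 15314 gene identifiers in the count files. Levels are given in CPM, the reads of a gene scaled to the same total of reads counted in genes in every library. A member had a ratio of active to inactive drone medians of at most 0.71, a ratio of active to inactive worker medians between 0.8 and the inverse of 0.8, a median of at least 5 CPM in inactive drones and of at least 1 CPM in the other 3 groups. Of 8152 genes that passed these floors on level, 129 met the drone cutoff. In 45 of them the worker ratio was below 0.8 and in 5 it was above the upper limit, which left the 79.

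The libraries, made from polyadenylated RNA with a directional kit, came from 48 single bees, with 12 bees in each of 4 groups. Active drones were taken at 3 pm when about to fly, inactive drones at 9 am, active workers at 3 pm when about to forage, and inactive workers at 9 am, so that activity and time of day cannot be told apart. All bees came from 3 colonies with unrelated, naturally mated queens. Active drones comprised 8, 2 and 2 bees of colonies 3, 1 and 2, inactive drones comprised 6, 5 and 1, and each worker group comprised 2, 5 and 5. Age was not given in the labels.

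Mushroom bodies are paired centres of the insect brain, built mostly of small intrinsic neurons called Kenyon cells, where smell and sight are integrated and memories are formed. Drones are male bees that develop from unfertilised eggs and carry a single set of chromosomes. They do not forage, and they leave the hive on mating flights that are typically made in the afternoon. Workers are females with paired sets of chromosomes, and as foragers they learn the places and times at which food is found. The libraries were made from bulk tissue, in which fewer cells of a type and less RNA per cell cannot be told apart. The members are known here by identifier alone, so no role in the cell is given for any of them, and the dissection could not be checked against markers of Kenyon cells or of neighbouring tissue.

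The number of reads counted in genes was 9.03 to 15.3 M in active drones, 6.69 to 22.4 M in inactive drones, 6.85 to 27.1 M in active workers and 7.95 to 25.6 M in inactive workers. All 79 members passed the filter on low counts, with 11167 genes tested in all. The lowest count of a member in any library was 1 read, and the median over the members of their lowest count was 51 reads.

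The libraries of active drones 1, 3 and 4, from colonies 1, 2 and 2, stood apart from the other active drones in GB50609, a gene outside the set with no name here. They had 162, 144 and 127 CPM of it, against 1653 to 5936 CPM in the other 9 active drones, 48.4 to 165 CPM in inactive drones and 81.0 to 1032 CPM in workers. Active drones 5 and 6 were highest. Both active drones of colony 2 were among the 3, so their colony and this gene cannot be told apart. Without the 3 libraries, a comparison chosen after the values were seen, 132 genes met the rule, 68 of them members, and the median drone ratio of the 79 members was 0.645. The drone response was then called in 31 members, where 4.87% of the 11325 genes tested in that fit were called in either direction. The share called lower alone in that fit is not given here. With all 48 bees, 1.31% of genes tested were called lower in active drones and 2.64% higher. Without the 3 libraries, the difference of the drone response from the worker response was called in 5 members, where 0.680% of the 11325 genes were. The sex difference was called in 46 members, 20 higher and 26 lower in drones, where 39.96% of the 11325 genes were.

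The ratios below are those the members were chosen on, and they are given as a description. The median drone ratio of the members was 0.671, against 0.976 for all genes past the floors. Most members lay near the cutoff, as 54 had a drone ratio above 0.65, 11 had one of at most 0.6 and 3 had one of at most 0.5. In workers the median ratio was 0.934, against 0.971 for all genes past the floors, with a range of 0.826 to 1.23. The worker ratio was below 1 in 55 of the 79 members and between 0.9 and the inverse of 0.9 in 40.

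**Figure D1:**
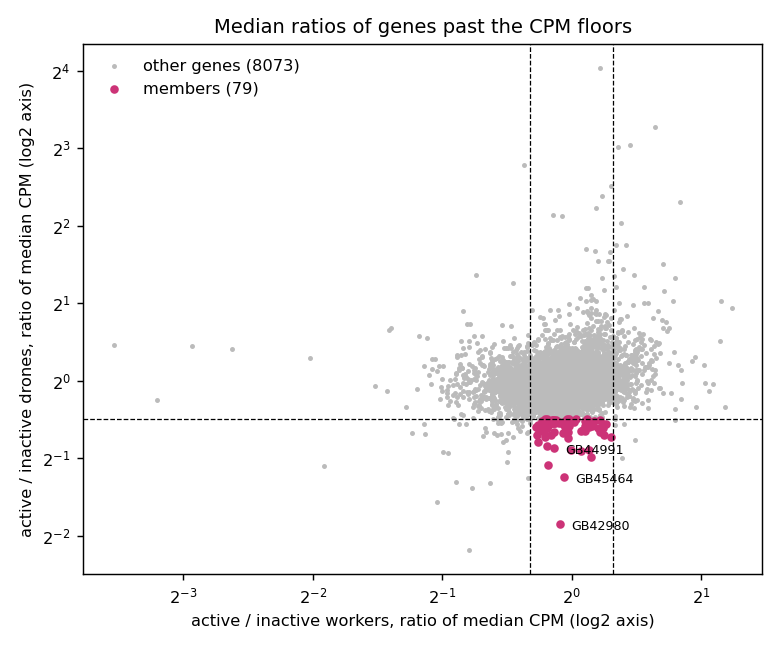
Ratio of active to inactive medians in drones (vertical axis) against the same ratio in workers (horizontal axis), both log2 axes, for genes past the CPM floors. Dashed lines are the cutoffs of the rule, and the 79 members lie just below the drone cutoff apart from a few, with GB42980 lowest at 0.277.

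The cutoffs ran through a continuous cloud of genes. Just inside the drone cutoff lay GB43844, GB48134 and GB45756 at ratios of 0.7095, 0.7091 and 0.7085, and just outside it lay GB43280, GB48794 and GB50362 at 0.7121, 0.7127 and 0.7131. At the lower worker cutoff the nearest members were GB51758, GB46184 and GB40315 at 0.826, 0.830 and 0.836, and the nearest genes left out were GB50137, GB43684 and GB41676 at 0.799, 0.798 and 0.791. At the upper worker cutoff the nearest members were GB55394, GB47943 and GB50236 at 1.234, 1.202 and 1.187, and the nearest genes left out were GB41932, GB44207 and GB44494 at 1.26, 1.31 and 1.32. The inactive drone floor of 5 CPM was passed most narrowly by GB42980, GB52652 and GB40609 at 5.01, 5.196 and 5.24 CPM, and missed most narrowly by GB49054, GB47791 and GB40947 at 4.80, 4.64 and 4.59 CPM. The floor of 1 CPM was passed most narrowly by GB55407, GB42980 and GB47943, whose lowest group medians were 1.32, 1.39 and 2.42 CPM, and it left out GB53625 alone at 0.341 CPM.

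A first kind of member had a shift in nearly every active drone. In GB44991, GB51758 and GB53953, 11 of the 12 active drones lay below the lowest inactive drone, and no member had all 12 below it. These genes were singled out after their values were seen. Over all genes tested, 0.0448% had 11 or more active drones below every inactive one. At least 9 active drones lay below all inactive ones in 9 members, against 0.376% of all genes tested, and at least 6 did so in 24 members, against 2.07%. The members were chosen on the same drones, so nothing follows from these shares.

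GB44991 had the lowest, median and highest values of 110, 164 and 246 CPM in active drones, 222, 300 and 358 CPM in inactive drones, 192, 294 and 380 CPM in active workers and 281, 323 and 403 CPM in inactive workers. Active drones had the lowest values, and their upper part overlapped with inactive drones and active workers but not with inactive workers. GB53953 had 40.0, 52.7 and 73.4 CPM in active drones, 64.2, 77.7 and 88.3 CPM in inactive drones, 56.0, 70.4 and 75.4 CPM in active workers and 65.01, 79.03 and 111 CPM in inactive workers. It varied least among drones of all the members, with a coefficient of variation of 12.1% averaged over active and inactive drones. GB51758 had 9.77, 14.5 and 21.4 CPM in active drones, 19.3, 21.97 and 26.3 CPM in inactive drones, 15.7, 21.9 and 25.7 CPM in active workers and 21.1, 26.5 and 30.1 CPM in inactive workers. Here the active workers were also on the low side, with a ratio of 0.826, next to the lower edge of the worker window.

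GB40315, GB47041 and GB40856 had drone ratios of 0.578, 0.599 and 0.604. GB47041 had 16.8, 23.2 and 41.4 CPM in active drones and 24.004, 38.7 and 57.1 CPM in inactive drones, and workers had 17.2, 24.5 and 36.5 CPM when active and 16.7, 25.0 and 31.7 CPM when inactive. The medians of active drones and of both worker groups lay close together, and that of inactive drones lay above them. GB40856 had medians of 24.5 CPM in active drones, 40.5 CPM in inactive drones, 18.6 CPM in active workers and 21.5 CPM in inactive workers, so that inactive drones were the high group there as well. GB40315 had medians of 15.1 and 26.2 CPM in active and inactive drones and of 21.4 and 25.6 CPM in active and inactive workers, so that active drones were the low group there.

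In a second kind of member the drones scattered widely. The 5 lowest drone ratios belonged to GB42980 (0.277), GB45464 (0.422), GB46364 (0.471), GB46900 (0.507) and GB52033 (0.531). Of these, GB46364 was closer to the first kind, with all 12 active drones below the inactive median and 8 below all inactive ones. It had 1.99, 3.41 and 6.26 CPM in active drones and 4.13, 7.24 and 14.2 CPM in inactive drones. Its workers had 2.54, 4.34 and 7.37 CPM when active and 3.86, 4.92 and 33.4 CPM when inactive, a ratio of medians of 0.882 but of means of 0.528. Its fitted worker change was the most negative of the members, at -0.75 ± 0.29 (log2, SE) and short of the threshold, so the shift was not shown to be particular to drones. GB45464 had 1.34, 4.17 and 16.4 CPM in active drones and 2.78, 9.89 and 19.2 CPM in inactive drones, and 1 active drone lay below the inactive range. GB47029, with a ratio of 0.540, had 5.20, 9.74 and 36.5 CPM in active drones and 6.37, 18.03 and 25.2 CPM in inactive drones, and workers were higher, with medians of 25.2 CPM in active and 25.3 CPM in inactive bees. The highest drone of GB47029 was an active one, so that its groups overlapped as well.

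GB42980 was present at 2 separate levels in drones of both times. In active drones 7 bees had 0.210 to 1.44 CPM and the other 5 had 10.5 to 24.4 CPM. In inactive drones 6 bees had 0.149 to 0.976 CPM and the other 6 had 9.04 to 21.98 CPM. No drone lay between 1.44 and 9.04 CPM, whereas 17 of the 24 workers did. The median of active drones lay within the low level and that of inactive drones lay between the levels, at 1.39 and 5.01 CPM. The means of active and inactive drones were 7.48 and 8.12 CPM, a ratio of 0.920.

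GB40566 had the same form. In active drones 5 bees had 0.849 to 3.87 CPM and 7 had 71.5 to 166 CPM, and in inactive drones 4 bees had 1.61 to 15.9 CPM and 8 had 101 to 184 CPM. No drone lay between 15.9 and 71.5 CPM, and 21 of 24 workers did, with worker medians of 57.8 CPM in active and 48.9 CPM in inactive bees. The low drones of GB42980 and of GB40566 came from all 3 colonies. A gap of at least 2-fold in CPM + 0.5 between neighbouring drones, with at least 4 drones on each side, was found in these 2 of the 79 members and in 32 of the 8152 genes past the floors (0.393%). A smaller gap of 1.65-fold on the same scale was present in GB46900, where 7 active and 5 inactive drones had at most 5.46 CPM and the others had at least 9.33 CPM.

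GB52033 had a few drones far above the rest, and GB53798 was spread widely among drones. GB52033 had 6.23, 11.6 and 170 CPM in active drones and 5.03, 21.8 and 130 CPM in inactive drones, and its drone mean was higher in active drones, at 39.7 against 35.6 CPM. GB53798 had 7.52, 32.4 and 257 CPM in active drones and 9.94, 57.9 and 160 CPM in inactive drones, with means of 59.0 and 63.3 CPM. In both genes the ranges of active and inactive drones overlapped almost completely.

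Over the 79 members the ratio of means had a median of 0.724, and it was at most 0.71 in 32 members and at least 1 in 2 members. With means in place of medians in every part of the rule, 25 of the 79 members met it. The coefficient of variation among bees was, at the median of the members, 34.2% in active drones, 30.7% in inactive drones, 23.2% in active workers and 25.1% in inactive workers. The medians over all genes past the floors were 17.96%, 21.6%, 17.5% and 21.1% in the same order of groups.

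**Figure D2:**
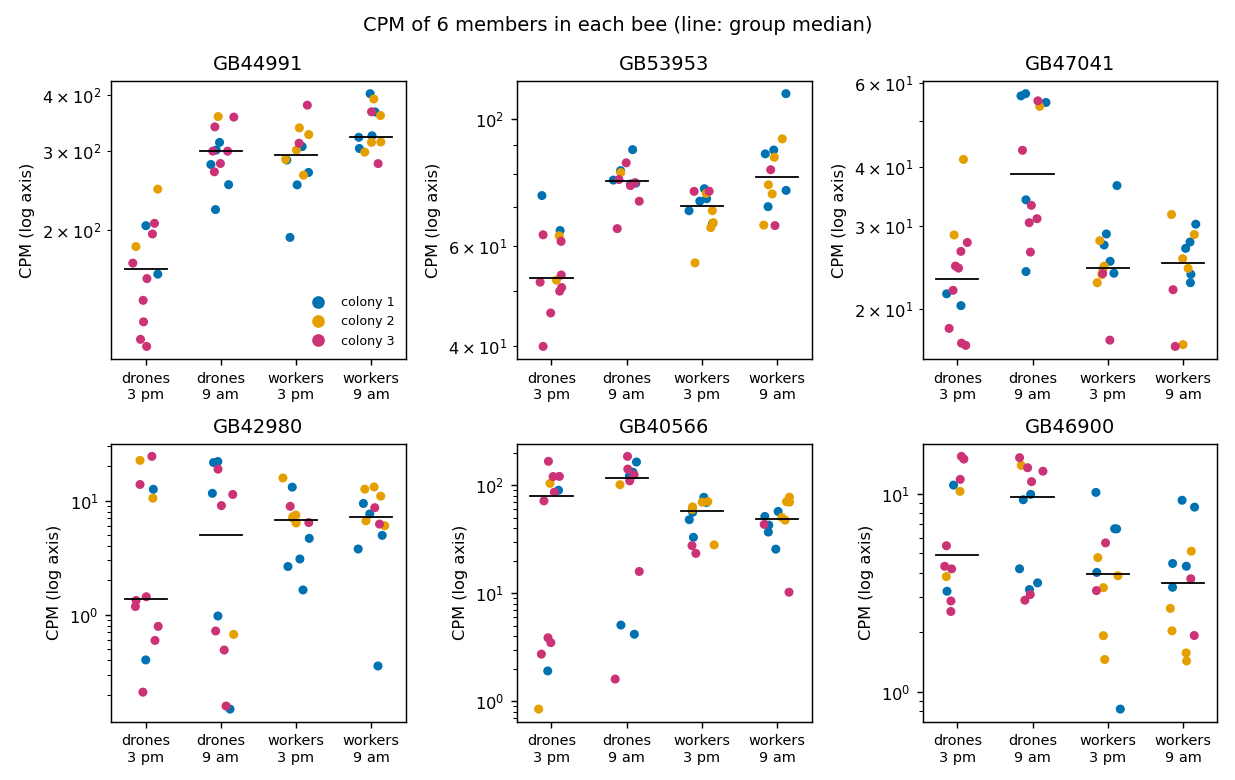
CPM (log axis) of 6 members in each bee, by group, with colour for colony and a line at the group median. Active drones lie below nearly all inactive drones in GB44991 and GB53953 and overlap with them in GB47041, and the drones of GB42980 and GB40566 fall into 2 levels at both times while workers lie mostly between them.

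The members with the highest CPM in inactive drones came next. CPM is not divided by gene length, so these members had the most reads and not the most transcripts. GB51236 led, with 507, 859 and 1964 CPM in active drones and 435, 1349 and 1710 CPM in inactive drones. Active workers had 327, 499 and 604 CPM and inactive workers had 327, 464 and 712 CPM. Its active and inactive drones overlapped over their whole range, and 5 inactive drones lay below the active median. The pooled drone ratio of GB51236 was 0.637, but within colonies 3, 1 and 2 it was 1.07, 0.849 and 1.13, so that no lower level in active drones was seen in the colony with most of the drones. GB50955 had medians of 402 CPM in active drones, 592 CPM in inactive drones, 219 CPM in active workers and 230 CPM in inactive workers. Its drone ratio was 0.782 within colony 3 and 0.422 within colony 1. In colony 2 the active drones had 453 and 348 CPM of it and the inactive drone had 380 CPM, so no lower level was seen there. GB43300 was even, at 256, 410 and 513 CPM in active drones and 451, 584 and 661 CPM in inactive drones, with 9 active drones below all inactive ones, and its worker medians were 529 and 589 CPM in active and inactive bees. The drone ratios of GB54634, GB45971, GB47202 and GB50777 lay between 0.683 and 0.708. Of these, GB47202 had 9 active drones below all inactive ones, at medians of 74.1 and 106 CPM in active and inactive drones.

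The members were then followed in single bees. For each bee, the difference between its log2 (CPM + 0.5) and the median of inactive drones was taken for every member, and the median over members is given. It was between -0.83 and -0.31 in the 12 active drones and between -0.49 and 0.09 in the 24 workers. The inactive drones were at -0.04 to 0.06, close to 0 as the measure requires. Active drones 5, 12 and 6, all of colony 3, were lowest at -0.83, -0.71 and -0.71. Active drones 4 and 1, of colonies 2 and 1, were the least shifted at -0.31 and -0.36, and active drone 3, of colony 2, was at -0.49. Each active drone was below the median of inactive drones in 62 to 74 of the members, and below every inactive drone in 9 to 38. The members were chosen on these drones, so the counts are a description, and the same counts over all genes are not given here. Active workers were below the inactive drone median in 49 to 62 members and inactive workers in 35 to 57. They were below every inactive drone in 8 to 19 and 11 to 19 members. In workers the medians were -0.49 to -0.18 in active and -0.40 to 0.09 in inactive bees, with wide overlap. Active worker 4 was lowest of the workers at -0.49, and it alone was in pool 7 of the labels.

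**Figure D3:**
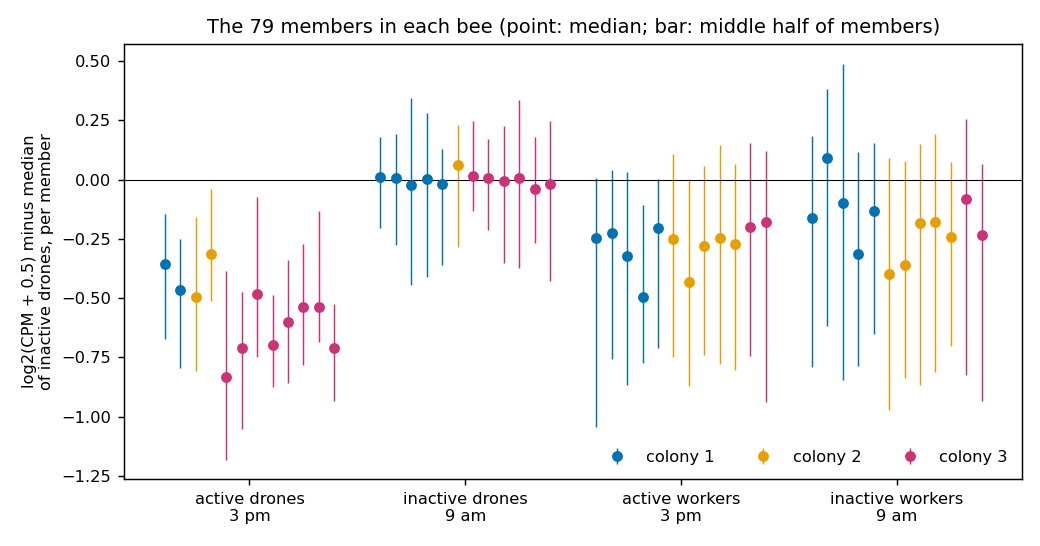
Difference of the 79 members from their inactive drone median in each bee, in log2 units, as the median over members (point) and the interquartile range of members (bar), coloured by colony. Active drones of colony 3 reach down to -0.83, active drones of colonies 1 and 2 lie between -0.49 and -0.31, and active and inactive workers overlap.

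The drone and worker responses to activity in the model fitted to all genes rest on the values the rule used, as does their difference, and their counts are descriptions. In drones, 30 of the 79 members were lower in active bees by edgeR's quasi-likelihood test with Benjamini-Hochberg adjustment at 0.05, where 1.31% of all genes tested were, and 0 were higher, where 2.64% of all genes tested were. The median log2 fold change of the members was -0.46, against -0.01 for all genes tested. The fitted change was positive for GB40609 (0.64), GB52033 (0.20) and GB53798 (0.05), whose medians were lower in active drones while single active drones were high. In workers 0 members passed with edgeR, where 2.31% of all genes tested did, 8 (10.1%) had an unadjusted p below 0.05, where 16.2% of all genes tested did, limma-voom called 0 and DESeq2 called 1, GB52640. The median log2 fold change of the members in workers was -0.05, against -0.01 for all genes.

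The difference of the responses, drone minus worker, is fitted to the values that chose the members, so it is a description as well. It was past the threshold of the model in 3 members, GB44887, GB44991 and GB47041, where 0.0716% of all genes tested were in this direction, and the share of members says nothing beyond the choice. Their fitted differences were -0.94 ± 0.20, -0.67 ± 0.15 and -0.79 ± 0.19 as log2 fold changes with SE. The fitted difference was negative in 77 of the 79 members, with a median of -0.37, and 76 members did not pass. GB44887 had medians of 4.40 CPM in active drones, 6.74 CPM in inactive drones, 10.1 CPM in active workers and 8.51 CPM in inactive workers. None of the 3 passed without colony 2, without colony 3 or with a block for the replicate number. GB44887 and GB47041 missed the threshold with limma-voom, and GB47041 also without colony 1, with size factors in place of TMM and with pool terms.

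The drone ratio was recomputed within each colony. The members were chosen on these same drones, so ratios below 1 were partly built into the choice and are a description. Within colony 3, with 8 active and 6 inactive drones, the drone ratio was below 1 in 75 of the 79 members, with a median of 0.661. Within colony 1, with 2 active and 5 inactive drones, it was below 1 in 69 members, with a median of 0.757. Within colony 2, with 2 active drones and 1 inactive drone, it was below 1 in 57 members, with a median of 0.782. Over all genes past the floors the ratio was below 1 in 48.8%, 62.0% and 57.1% of genes in colonies 3, 1 and 2. The ratio was below 1 in all 3 colonies in 50 members and lower in colony 3 than in colony 1 in 57 members. Colony 3 gave 8 of the 12 active drones and so weighed most in the choice of members. Without colony 3, 0 members passed in the drone response with edgeR, with 23 at an unadjusted p below 0.05 and 4 active and 6 inactive drones in the fit. The shares of all genes in that fit are not given here, so fewer drones and a weaker response cannot be told apart.

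GB44991 was lower in active drones of each colony. In colony 3 the lowest, median and highest values were 110, 147 and 207 CPM in active and 269, 300 and 357 CPM in inactive drones. In colony 1 the active drones had 159 and 204 CPM, and the inactive drones had 222, 280 and 313 CPM as lowest, median and highest. In colony 2 the active drones had 183 and 246 CPM and the inactive drone had 358 CPM. No active drone reached the inactive range of its own colony.

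**Figure D4:**
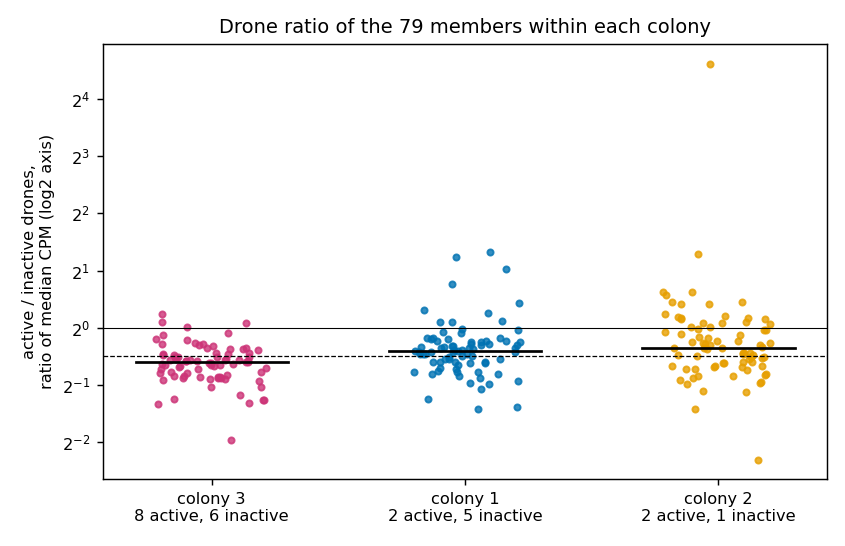
Ratio of active to inactive drone medians (log2 axis) of each of the 79 members within colonies 3, 1 and 2, with a black line at the median of members and a dashed line at 0.71. The medians are 0.661, 0.757 and 0.782, and many members lie above 1 in colony 2, where 1 inactive drone sets every ratio.

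For several members the drone ratio within a colony differed from that over all drones. Whether the uneven colony make-up of the drone groups was the cause was not tested. In 4 members the ratio within colony 3 was at least 1, namely GB51236 at 1.07, GB42616 at 1.19, GB47943 at 1.01 and GB40609 at 1.06, against 0.637, 0.668, 0.682 and 0.686 over all drones. In 5 members the ratio within colony 3 was more than 1.5 times that over all drones. GB49280 and GB55394 were the members called between drones of colony 3 and colony 1 in the fit of the 24 drones with time as a covariate at the threshold of edgeR's test, where 0.931% of all genes tested were lower in colony 3. Colony shares differed between active and inactive drones, so this comparison is not independent of the rule. The log2 difference, colony 3 minus colony 1, was -1.03 ± 0.17 for GB49280 and -1.17 ± 0.22 for GB55394 (SE). GB49280 had 22.2, 31.2 and 67.3 CPM in the 14 drones of colony 3 and 50.3, 69.8 and 109 CPM in the 7 drones of colony 1. Its drone ratio was 0.656 over all drones, 0.938 within colony 3 and 0.954 within colony 1. The drone ratio of GB55394 was 0.605 over all drones, 0.866 within colony 3 and 1.08 within colony 1. A ratio below 1 in colony 3 with one of at least 1 in colony 1 was found in 9 members, among them GB46900, with 0.399 and 1.71. Each ratio in colony 1 rests on 2 active and 5 inactive drones.

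Workers were spread over the colonies alike at both times, so a colony difference in workers is independent of the rule. Between workers of colony 1 and of colony 2, with 10 bees each, 0 of the 79 members passed with edgeR, with 11 (13.9%) at an unadjusted p below 0.05, where 8.26% of all genes tested were, and limma-voom and DESeq2 also called 0. Of all genes tested 0.555% passed. The member with the lowest p was GB46900 (log2 difference, colony 1 minus colony 2, 1.07 ± 0.33 SE, edgeR adjusted p = 0.189), with 0.820, 5.55 and 10.2 CPM in colony 1 and 1.43, 2.34 and 5.13 CPM in colony 2.

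The labels also give each library a pool, without saying of what. Pools 1 to 6 each held 2 active and 2 inactive drones, so that pool and activity were balanced in drones. The drone ratio was below 1 in 61 to 73 of the 79 members within the single pools, and its median over members ran from 0.636 to 0.773. These are again the drones the members were chosen on, so the values are a description. Over all genes past the floors the ratio was below 1 in 47.1% to 60.7% of genes within pools, and the median ratio ran from 0.950 to 1.01.

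The sexes were compared as the average over 3 pm and 9 am, a difference that the ratios of the rule do not use. By this measure 49 of the 79 members differed (62.0%), 23 higher and 26 lower in drones (edgeR quasi-likelihood test, adjusted p below 0.05). Of all genes tested 45.7% differed, 24.2% higher and 21.5% lower, and of the genes past the floors 50.8% differed. The median log2 difference of the members, drone minus worker, was -0.02, against 0.04 for all genes tested. Their median absolute log2 difference was 0.42, against 0.26 for all genes tested and 0.23 for the genes past the floors. The floor was higher for inactive drones than for workers, which could admit weak genes that were higher in drones. Among the 58 members with all 4 medians at 5 CPM or more, 38 (65.5%) differed, 17 higher and 21 lower in drones. Of the 7637 genes tested with all 4 medians at that level, 50.5% differed, 24.03% higher and 26.5% lower. Whether the share differs from that of other genes was not tested.

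Of the members that differed, 10 were at least 2-fold higher in drones and 1 was at least 2-fold lower. The shares of all genes with such differences are not given here. The floors admit genes weak in workers more readily than genes weak in inactive drones, so nothing is read from this split. GB47943 had 5.91, 11.2 and 31.7 CPM among the 24 drones and 1.29, 2.61 and 5.22 CPM among the 24 workers, with every drone above every worker (log2 difference 2.03 ± 0.17 SE, edgeR adjusted p = 4.42e-13). Such a full separation was found in 0.143% of all genes tested. GB50777 had 54.3, 76.2 and 121 CPM among drones and 29.4, 43.0 and 54.6 CPM among workers, and 23 of 24 drones lay above every worker (log2 difference 0.89 ± 0.09, edgeR adjusted p = 2.36e-11). GB41203 had 15.3, 43.5 and 83.6 CPM among drones and 10.8, 15.3 and 35.2 CPM among workers, with 20 drones above all workers (log2 difference 1.54 ± 0.16, edgeR adjusted p = 1.62e-10). In these genes the active drones, though lower than the inactive ones, were still above the workers at the median.

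GB55537 and GB55407 were higher in drones too, with log2 differences of 0.79 ± 0.09 and 2.71 ± 0.33 (SE; edgeR adjusted p = 1.38e-09 and 5.19e-09). GB55407 varied widely among drones, at 1.37, 9.87 and 57.5 CPM, and was weak in workers, at 0.530, 1.32 and 7.01 CPM. GB51236, the member with the most reads, had medians of 961 CPM over all drones and 496 CPM over all workers (edgeR adjusted p = 2.12e-08), and 20 of 24 drones lay above every worker.

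GB40609 was the one member at least 2-fold lower in drones. It had 1.107, 4.57 and 25.5 CPM among drones and 9.75, 116 and 273 CPM among workers, and 21 of 24 drones lay below every worker, where all 24 did so in 0.296% of all genes tested (log2 difference -3.68 ± 0.44 SE, edgeR adjusted p = 2.55e-09). Its drone medians of 3.59 CPM in active and 5.24 CPM in inactive bees were thus a small fraction of its level in workers. GB45168 had 27.2, 44.6 and 73.9 CPM among drones and 42.5, 76.1 and 110 CPM among workers, with 8 drones below every worker (log2 difference -0.66 ± 0.08, edgeR adjusted p = 2.08e-09). GB40981 had 7.43, 11.4 and 18.5 CPM among drones and 15.5, 19.9 and 26.3 CPM among workers, with 18 drones below every worker (log2 difference -0.85 ± 0.10, edgeR adjusted p = 2.96e-09). GB53449 and GB44887 were also lower in drones, by log2 differences of -0.81 ± 0.10 and -0.88 ± 0.12 (edgeR adjusted p = 1.57e-08 and 3.71e-08), with 19 and 18 drones below every worker. In these members inactive drones were below workers at the median and active drones were lower again.

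**Figure D5:**
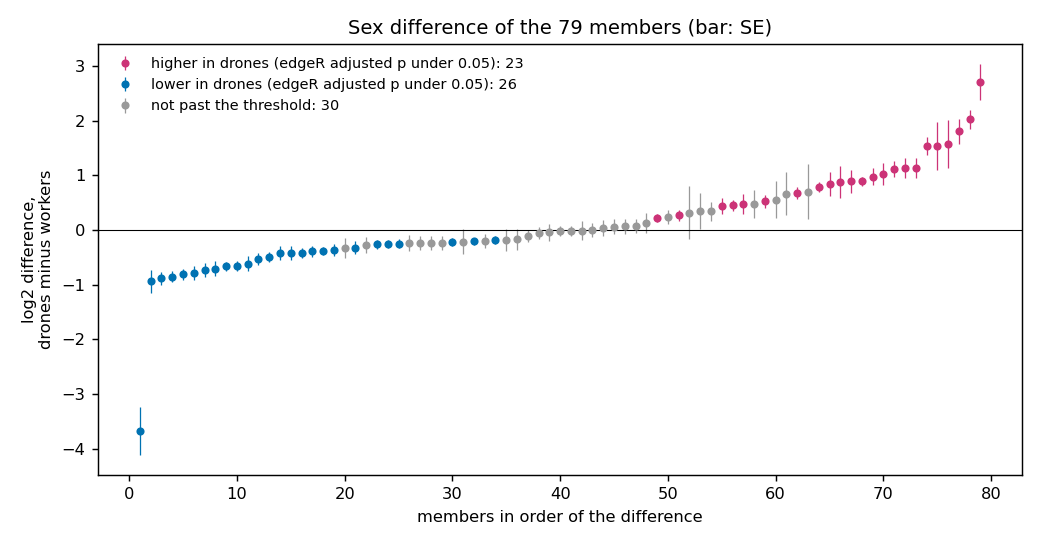
Log2 difference, drones minus workers, as the average over 3 pm and 9 am, of the 79 members in order of size, with bars for SE. By edgeR's test 23 members are higher in drones, 26 are lower and 30 did not pass, and GB40609 stands alone at -3.68.

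The direction of the sex difference was mostly the same within colonies. The members were called higher or lower on these same bees, so this was partly built in and is a description. Of the 23 members higher in drones, the median of drones was above that of workers in 19, 22 and 22 within colonies 3, 1 and 2. Of the 26 lower in drones, it was below that of workers in 26, 24 and 25. Within the 6 pools that held both sexes the counts were 19 to 23 and 22 to 26. Without colony 1 the number of members that differed was 32, with 17 higher and 15 lower in drones, and 28.3% of the 11250 genes tested in that fit differed.

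For comparison, the reverse pattern, a rise of the same size in active drones with a worker ratio in the same window, was met by 176 genes. Of these 83 (47.2%) differed between the sexes, 58 higher and 25 lower in drones. Both ratios were at most 0.71 in 28 genes, of which 14 differed between the sexes, 4 higher and 10 lower in drones. The differences between these shares were not tested.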

How the data were processed

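The deposited files hold raw read counts per gene, 1 file per bee, with 5 summary rows for reads given to no gene, which were left out. Their processing notes name, with no role or order, edgeR 3.4.2, HTSeq 0.5.4 and SAMtools, as well as TopHat2 2.0.10, and also CASAVA 1.8.2 and Trimmomatic 0.30 (per the submitters' processing notes). Per the file names the assembly was Amel4.5 and the gene set OGS3.2. Counting mode and strand setting were not given in the sources used here, so overlapping or near-identical genes are uncertain. Reads outside genes made up 28.0% ± 1.73 (SD, n = 48) of the entries, 2.68% had several alignments and 0.909% were ambiguous. No name stands beside an identifier in the files, and 0 of 15314 identifiers matched the name table of the assembly Amel_HAv3.1, so the gene lists that had been drawn up (clock, immediate early, metabolic and heat shock genes, and markers of Kenyon cells, glia, photoreceptors, fat body, glands, haemocytes and muscle) could not be matched and give no result.

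CPM were computed from the sum of gene reads of each library, unscaled. Tests used 1 quasi-likelihood model in edgeR 4.0.16, with terms for the 4 groups and for colony (R 4.3.3, TMM scaling, filterByExpr by group, 11167 genes, two-sided, Benjamini-Hochberg adjustment over all of them, threshold 0.05). Colony contrasts came from fits of 24 bees of 1 sex with time and colony. SE is the log2 fold change divided by the root of F. Members, lists, named genes and tests were chosen with earlier results of these data known. Named members were the 12 with the lowest drone ratio, the 10 with the highest inactive drone median, the 5 with the lowest p for the sex difference each way, those called for the response difference, and the 3 nearest to each cutoff. Others named were singled out after their values were seen. The fits were tested on simulated counts of 11167 genes with 200 genes changed. For the simulated sex difference 66% of changes of 0.5 and 94% of changes of 1 on the log2 scale were recovered, with 3.24% false calls. For the simulated drone response the shares were 36% and 90%, with 4.79% false calls, and for the simulated colony difference of workers 22% and 84%, with 5.62%. Alternatives were size factors, DESeq2 1.42.0, limma-voom (limma 3.58.1), no filter, a replicate block, pool terms and each colony left out, and other forms of the membership rule. The rule without each bee in turn, and the counts without active drones 1, 3 and 4, were added after the data were seen. Bees are separate animals, but bees of a colony share a hive and a queen.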

Additional observations from a re-analysis of the deposited data

Results flagged for a closer look

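In 3 members the fitted difference between the drone and worker responses to activity was past the threshold of edgeR's test. The drone response minus the worker response was -0.94 in GB44887, -0.67 in GB44991 and -0.79 in GB47041 on the log2 scale. The members were chosen for a low drone ratio and a worker ratio near 1, so a difference in this direction was built into the choice and the values are a description, not a test. None of the 3 passed with the replicate block, without colony 2 or without colony 3. Fitted log2 changes, active minus inactive, were -0.70 in drones and 0.23 in workers for GB44887, -0.86 and -0.18 for GB44991, and -0.73 and 0.07 for GB47041.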

How the results depend on the processing

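The number of genes that met the rule moved with how it was applied. It was 49 with means in place of medians (25 of them members), 39 and 143 with drone cutoffs of 0.67 and 0.75, 40 with a worker window of 0.9 to its inverse, 162 without colony 1 (51 of them members), 212 without colony 3 (25 of them members) and 132 without active drones 1, 3 and 4 (68 of them members). With TMM-scaled CPM it was 73, of which 60 were members, and all 79 members kept a drone ratio below 1. Without each bee in turn it ran from 68 to 99 genes, with 56 to 79 of the members among them, and 39 members met the rule each time. The sex difference was called in 32 members without colony 1 and in 45 to 49 under the other alternatives. By edgeR the drone response was called in 0 members without colony 3, with 23 at an unadjusted p below 0.05. DESeq2 called 1 member in the worker response and 4 in the drone colony comparison. The response difference was called in 5 members without active drones 1, 3 and 4, in 1 member with limma-voom and in 0 by edgeR without colony 2, without colony 3 or with the replicate block, where 23, 12 and 26 had an unadjusted p below 0.05. Same-numbered bees of 2 groups had correlations of their deviations from -0.34 to 0.50. Bees of different numbers were not compared, so whether the numbers pair bees was not tested. The replicate block gave 45 members for the sex difference and 20 for the drone response, against 49 and 30. Except where given above, the shares of all genes called under the alternatives are not set beside these counts of members.

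Among named genes the sex difference changed sign, from values that had not passed, with limma-voom in GB40566 (-0.33), GB42980 (-0.87) and GB50236 (-0.0267), without colony 1 in GB42980 (-0.14), GB46364 (0.0893) and GB50236 (-0.25), and without colony 3 in GB43844 (0.0939) and GB45464 (0.16). The fitted drone response changed sign with limma-voom in GB42980 (0.21) and GB53798 (-0.23), with the replicate block in GB42980 (0.0103), GB47029 (0.0361), GB52033 (-0.27) and GB53798 (-0.26), and with pool terms in GB53798 (-0.0333). Without colony 1 it did so in GB42980 (0.22), GB50955 (0.0031) and GB51236 (0.16), without colony 3 in GB45756 (0.24), GB46900 (0.11), GB52033 (-2.05), GB53798 (-0.66) and GB55394 (0.0304), and from drone libraries alone in GB51236 (0.0786). The cause of these changes was not tested. The 10 members named for the lowest p of the sex difference kept their direction and passed in every alternative run for single genes. They were picked for their low p, and the alternatives used the same bees or part of them. Passing again was thus largely built in and is a description.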
